A study of Mus musculus with 2 samples.

Results

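The microRNA cluster in Clcn5 is a set of hairpin genes on the X chromosome that lie on the same strand as the gene for ClC-5, a chloride and proton exchanger of endosomes. Its members were chosen by symbol, by a rule that uses no measured value but was written with earlier results of these data known, as the rows of the count tables that GENCODE vM21 names Mir532, Mir188, Mir362, Mir500 or Mir501. Of 6 listed symbols, these 5 were found among 2202 microRNA genes, and the sixth, Mir660, matched no row and was not analysed here. The counts come from small RNA of gastrocnemius, the large muscle of the calf, of male B6CASTF1/J mice aged 14 days. B6CASTF1/J is a first-generation hybrid of the strains C57BL/6J and CAST/EiJ. There is 1 group, with 2 biological replicates of 1 library each and a labelled size range under 30 nt. Both carry the same donor identifier and a label that mentions several males, without saying whether a replicate pools them, so the spread between the replicates may be partly technical.

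A microRNA is cut from a hairpin in a longer transcript, first in the nucleus and then in the cytoplasm, and either arm of the hairpin (5p or 3p) can become the mature microRNA. The mature strand guides Argonaute to messenger RNAs, mainly through its seed, bases 2 to 8. MicroRNAs within an intron can be made from the transcript of their host gene, and those of a cluster from a common precursor. In human the equivalent cluster also lies in CLCN5. In mouse muscle, miR-501 is known from activated satellite cells, the progenitors that rebuild injured fibres, and miR-188 is known from bone marrow stromal cells, where it bears on the choice between bone and fat.

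The mature sequences are shown because the cluster's members resemble one another and share seeds across different levels. They are RefSeq's, on build GRCm38.p6, all from the minus strand of chromosome X between 7237695 and 7248051 for these 4 genes, and read 5′ to 3′ with the seed in capitals.
miR-501-3p: aAUGCACCcgggcaaggauuug
miR-500-3p: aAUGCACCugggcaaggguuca
miR-362-3p: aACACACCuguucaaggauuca
miR-188-3p: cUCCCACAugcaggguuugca
miR-501-5p: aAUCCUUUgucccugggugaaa
miR-500-5p: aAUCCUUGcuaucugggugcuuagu
miR-362-5p: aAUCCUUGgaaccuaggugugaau
miR-188-5p: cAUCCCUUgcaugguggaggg
For Mir532 the RefSeq sequences used list only the 3p arm, from 7248419 to 7248440 on the same strand. Its 5p arm was therefore not part of the comparisons of seeds and mature sequences.
miR-532-3p: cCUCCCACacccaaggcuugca

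miR-500-3p and miR-501-3p have the same seed and were identical at 18 of 22 positions. Counted from 1 at the 5′ end, with the base of miR-500-3p first and that of miR-501-3p last, they differ by U9C, G18A, C21U and A22G. miR-500-5p and miR-362-5p also share a seed. The seed of miR-188-3p stands in miR-532-3p too, moved by 1 base, in a run of 8 identical bases, and these arms matched at 17 of 22 aligned positions. The hairpins of Mir500 and Mir501 were the most alike of the 10 pairs of members, with 67.3% of aligned positions identical, against 57.3% for the next pair, Mir362 and Mir188. These are shown with the 3p arm in capitals (minus strand of chromosome X, 7241243 to 7241351 for Mir501 and 7237683 to 7237774 for Mir500).
Mir501 hairpin: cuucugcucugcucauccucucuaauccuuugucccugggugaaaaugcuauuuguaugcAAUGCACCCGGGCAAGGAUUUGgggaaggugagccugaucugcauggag
Mir500 hairpin: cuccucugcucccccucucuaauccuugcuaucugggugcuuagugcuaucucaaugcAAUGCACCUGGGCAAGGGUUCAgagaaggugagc

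This likeness bears on counting, since a read that maps to several loci is in no gene's count. The longest run that Mir500 and Mir501 have in common is 14 bases, and for the other members the longest run in common with any of the 2202 annotated microRNA transcripts was 11 or 12 bases. None of the 9 mature sequences shown occurred whole in a transcript of another gene of the annotation. The genome outside annotated transcripts was not searched.

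On the mm10 build, Clcn5 spans 7153810 to 7319358 of chromosome X on the minus strand. All 5 microRNA genes lie in 1 intron of it, 103648 bases long, which is part of 3 of its 5 annotated transcripts. The shorter transcripts start inside the gene, the first of them at 7188714, which is 49.0 kb past the cluster in the direction of transcription, so they do not contain it. The cluster covers 10.8 kb. Mir532 comes first along transcription (ENSMUSG00000070139.1, 7248402 to 7248497), and Mir188 follows after a gap of 345 bases (ENSMUSG00000065398.1, 7247989 to 7248056). Mir362 lies another 5942 bases on (ENSMUSG00000070100.1, 7241982 to 7242046), and Mir501 is 630 bases past it (ENSMUSG00000076251.1). Mir500 is last, after a further gap of 3468 bases (ENSMUSG00000070108.2). No other microRNA gene of the tables lies within Clcn5 on its strand.

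Replicate 1 had 2743657 counts on microRNA genes out of 10056843 reads, and replicate 2 had 2211254 out of 8189059, while 44.0% and 52.1% of reads mapped to several loci. Levels are CPM (counts-per-million), scaled by the counts on all microRNA genes, with the SD over the replicates (n = 2). Skeletal muscle markers were present, with 68288 CPM of Mir206 in replicate 1 and 67909 CPM in replicate 2, and all 5 muscle markers were at 10 CPM or more in both. Among them Mir499 was higher in replicate 1, with 338 CPM against 217 CPM in replicate 2. Mir486 and Mir133b went the other way, with 571.5 and 20.8 CPM in replicate 1 against 650.3 and 31.7 CPM in replicate 2. Markers of other cells of the muscle were also high, with Mir126a of endothelium at 98087 and 80432 CPM, above each of the 5 muscle markers listed. That list leaves out the genes of miR-1 and miR-133a. Of these, Mir1a-2 had 543 and 651 counts and Mir133a-1 had 50 and 35, without any read that mapped to several loci. The markers therefore do not rank muscle against endothelium. The smooth muscle markers Mir143 and Mir145a summed to 36704 and 34920 CPM, and the 4 leukocyte markers to 977 and 1048 CPM. The neuronal genes Mir124a-1, Mir124a-2, Mir124a-3 and Mir9-2 had no count, but reads of such genes, whose mature sequence is the same at several loci, are not counted under any gene. The neuronal Mir137 stood at 14.2 CPM in replicate 1 and at 47.9 CPM in replicate 2. The part of other cell types in the levels below was not tested. The liver marker Mir122 had 108 and 132 CPM, and the red blood cell markers Mir451a and Mir144 together had 384 and 571 CPM. The sample is a whole muscle, in which more cells of a type and more RNA per cell cannot be told apart.

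All 5 genes of the cluster were present in both replicates, at 90.0 to 2288 CPM. Each reached 10 CPM in both, as did 258 of the 2202 microRNA genes (11.7%) and 15.3% of the X-linked microRNA genes outside the cluster. Together they held 11173 counts in replicate 1, which is 0.407% of assigned counts (95% Wilson interval 0.3998 to 0.4148), and 9069 counts or 0.410% in replicate 2 (0.4018 to 0.4186). The summed level was thus the same in the replicates within counting error, at 4087 CPM ± 20.5. The cluster held 12.2% of all X-linked microRNA counts in replicate 1 and 11.7% in replicate 2. No member had a count on the opposite strand.

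Mir532 was the highest member. It had 6239 counts in replicate 1 and 5059 in replicate 2, or 2274 and 2288 CPM, with a mean of 2281 CPM ± 9.81. Human miR-532-5p is known for targeting RUNX3 in gastric cancer cells. Mir532 ranked at place 53 among all microRNA genes by CPM and at place 6 among X-linked ones. Mir378a, the most abundant gene of the tables, was 51.4 times as high by CPM.

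Mir501, the member known from regenerating muscle, was the second. It had 3118 counts in replicate 1 and 2796 in replicate 2, or 1136 and 1264 CPM, with a mean of 1200 CPM ± 90.5. It ranked at place 69 of all microRNA genes and at place 9 of those on the X chromosome. Its level in replicate 1 was below that in replicate 2, and both values lay far under those of Mir532.

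Mir500 had 965 counts in replicate 1 and 641 in replicate 2, or 352 and 290 CPM (mean 321 CPM ± 43.7). Mir188 had 595 and 374 counts, or 217 and 169 CPM (mean 193 CPM ± 33.7). For both, replicate 1 was the higher. Mir362 was the lowest, with 256 counts in replicate 1 and 199 in replicate 2, or 93.3 and 90.0 CPM (mean 91.7 CPM ± 2.34). Human miR-362-5p is known for targeting CYLD, an inhibitor of NF-kappa B signalling.

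**Figure D1:**
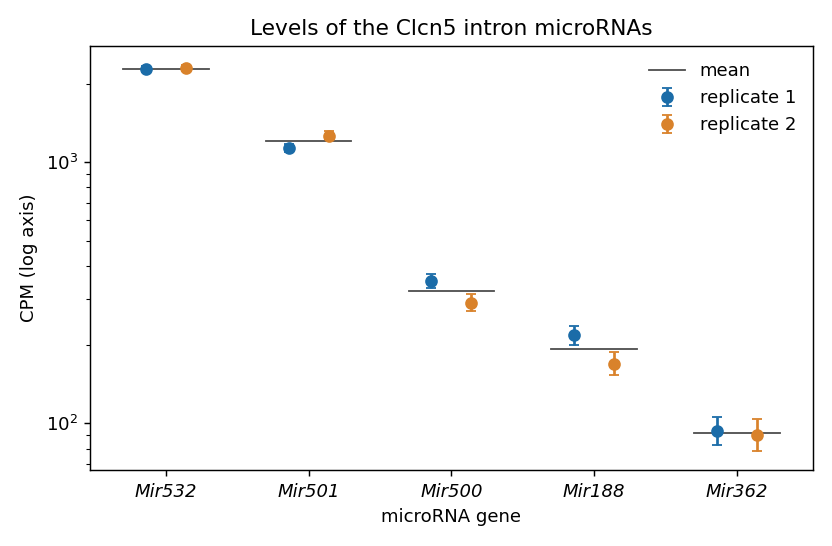
CPM of each microRNA gene of the Clcn5 intron (log axis) in replicate 1 (blue) and replicate 2 (orange), with 95% Wilson intervals of the count and the mean as a line. From Mir532 at 2281 CPM to Mir362 at 91.7 CPM, the ranges of neighbouring genes do not overlap.

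The order of levels was Mir532, Mir501, Mir500, Mir188 and Mir362 in each replicate. No pair of neighbours in it overlapped between the replicates, so each step was larger than the spread of these 2 samples. By CPM, Mir532 was 2.00 times Mir501 in replicate 1 and 1.81 times in replicate 2, and Mir501 was 3.23 and 4.36 times Mir500. Mir500 was 1.62 and 1.71 times Mir188, and Mir188 was 2.32 and 1.88 times Mir362. A small RNA read covers a whole mature microRNA, so that counts need not grow with the length of the hairpin. The annotated lengths run from 65 bases for Mir362 to 109 bases for Mir501. Per base of annotated gene the order was the same, at 23.8 CPM per base for Mir532, 11.01 for Mir501, 3.49 for Mir500, 2.84 for Mir188 and 1.41 for Mir362. The smallest step, Mir500 over Mir188, was then 1.20-fold in replicate 1 and 1.27-fold in replicate 2.

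Mir532 held 55.8% of the cluster's counts in both replicates, with 95% Wilson intervals of 54.9 to 56.8 in replicate 1 and 54.8 to 56.8 in replicate 2. Mir501 held 27.9% (27.1 to 28.7) in replicate 1 and 30.8% (29.9 to 31.8) in replicate 2. Mir500 held 8.64% (8.13 to 9.17) and 7.07% (6.56 to 7.61), and Mir188 held 5.33% (4.92 to 5.76) and 4.12% (3.73 to 4.55). The intervals of these 3 genes did not overlap between the replicates, while that of Mir532 did. Mir362 held 2.29% and 2.19%, with overlapping intervals. The cluster's total was thus close between the libraries while its inner proportions differed by more than counting error. Shares of Mir500 and Mir188 were larger and that of Mir501 smaller in replicate 1. Such differences were not particular to the cluster. Of the 258 genes at 10 CPM or more in both, 31.8% were higher and 19.0% lower in replicate 1 beyond counting error, in the exact binomial test described below.

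Nearby genes of the cluster stood at unlike levels. Mir188 begins 345 bases past Mir532, and Mir532 was 10.5 times Mir188 by CPM in replicate 1 and 13.5 times in replicate 2 (8.50 ± 1.52 per base of annotated gene). Mir362 and Mir501 are 630 bases apart, and Mir501 was 12.2 times Mir362 in replicate 1 and 14.1 times in replicate 2 (7.82 ± 0.789 per base). Along transcription the highest gene was thus first, the second highest was the fourth, and Mir500, the last, was in the middle of the order. The tables count whole hairpins, so the arm behind each level is not given.

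**Figure D2:**
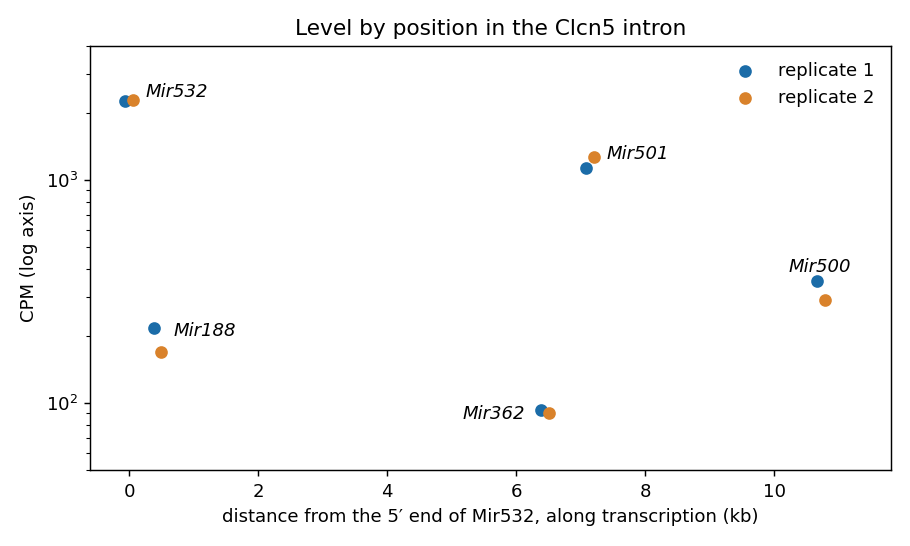
CPM of each gene (log axis) in replicate 1 (blue) and replicate 2 (orange) against its distance in kb from the 5′ end of Mir532, in the direction of Clcn5 transcription. Mir532 and Mir188, 345 bases apart, and Mir362 and Mir501, 630 bases apart, each differ by over 10-fold in CPM.

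Genes with a shared seed also stood at unlike levels. These are counts of whole hairpins, so the level of the arm that bears the seed is not known. For the seed that miR-501-3p shares with miR-500-3p, Mir501 was 3.80 ± 0.800 times Mir500 by CPM and 3.20 ± 0.675 times per base. No other mature sequence of RefSeq's mouse table has that seed. For the seed shared by miR-500-5p and miR-362-5p, Mir500 was 3.50 ± 0.388 times Mir362 by CPM and 2.47 ± 0.274 times per base. Again no further gene of that table has the seed.

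Outside the cluster, the seed of miR-362-3p is that of miR-329-3p, from a gene of the imprinted Dlk1-Dio3 cluster on chromosome 12 (Mir329, ENSMUSG00000065577.1, 109713481 to 109713577). In replicate 1 Mir329 stood at 897 CPM and in replicate 2 at 1028 CPM, against 93.3 and 90.0 CPM of Mir362. It was 10.5 ± 1.28 times Mir362 by CPM and 7.05 ± 0.857 times per base, again as whole hairpins and not as the arms with the seed. The seed of miR-188-5p is also that of miR-7061-3p, whose gene Mir7061 on chromosome 7 had 4 counts in replicate 1 and 0 in replicate 2. A count of 0 allows up to 3 counts, which is 1.36 CPM at that depth. The seeds of the other arms shown were in no further mouse gene of that table.

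The hairpins were 46.2% to 55.9% G and C, with Mir362 lowest and Mir188 highest. Their predicted minimum free energies ran from −28.5 kcal/mol for Mir362, of 65 bases, through −28.8 for Mir188, −33.2 for Mir532 and −41.9 for Mir500, to −46.9 for Mir501, of 109 bases. Neither order was that of the levels, since Mir532, the highest gene, had the second lowest share of G and C and was in the middle by free energy.

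The question that 2 replicates of 1 group allow is how far each member's count differed between these libraries. Over the 258 genes at 10 CPM or more in both, each gene's counts were set against each other in an exact binomial test (two-sided), with library sizes scaled by the trimmed mean of M-values (TMM) and Benjamini-Hochberg adjustment over all 258. What it compares is these libraries, not conditions, and it allows for counting error alone. Log2 ratios are replicate 1 over replicate 2 on log2(CPM + 1). Of the 5 members, 2 were higher in replicate 1, where 31.8% of all genes tested were, and 1 was lower, where 19.0% were. None of the 5 differed by 2-fold with an adjusted p under 0.05, as 1.16% of all genes did. These shares rest on few members and on the scaling: over all genes 82 were higher and 49 lower in replicate 1, and with library sizes from total counts 66 and 67, while the members' count was 2 and 1 in both cases.

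Mir188 was 1.32 times as high in replicate 1 as in replicate 2, a log2 ratio of 0.40 (95% exact interval 0.22 to 0.60; exact binomial test, adjusted p = 6.62e-05). Mir500 was 1.25 times as high in replicate 1, a log2 ratio of 0.32 (interval 0.18 to 0.47, exact binomial test, adjusted p = 3.06e-05). Mir501 was lower in replicate 1, with a log2 ratio of −0.11 (interval −0.18 to −0.03, exact binomial test, adjusted p = 0.0103).

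The remaining members were not called. Mir532 had a log2 ratio of 0.04 (interval −0.02 to 0.09, exact binomial test, adjusted p = 0.261), the narrowest interval of the 5 on the largest counts. Mir362 had a log2 ratio of 0.10 with a wider interval, −0.17 to 0.37, on 256 and 199 counts (exact binomial test, adjusted p = 0.599). The median log2 ratio of the 5 members was 0.10, beside 0.04 over all genes tested, and their median absolute log2 ratio was 0.11, beside 0.18 over all. The summed count of the cluster had a log2 ratio of 0.04 with TMM sizes and of −0.01 with total-count sizes, as had Mir532, so neither has a direction that is independent of the scaling.

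The calls were lost when the spread between libraries over all genes was taken as the error. With edgeR's exact test at the common biological coefficient of variation of 12.8%, 0 of the 5 members passed at adjusted p under 0.05 and 0 at an unadjusted p under 0.05, while 3 of the 258 genes passed and 15 were under 0.05 unadjusted. That coefficient was estimated from the same 2 libraries.

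**Figure D3:**
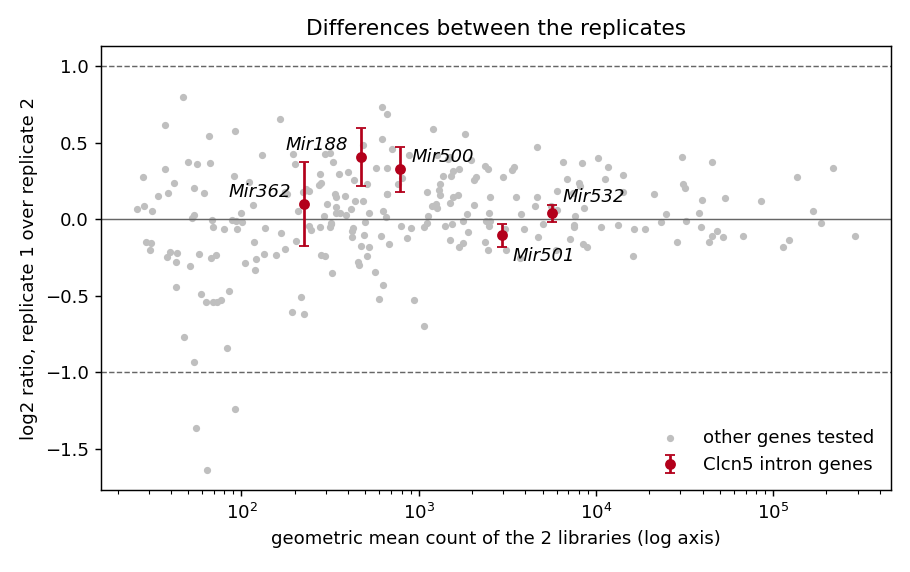
Log2 ratio of replicate 1 over replicate 2 against the geometric mean count (log axis) for the 258 genes tested (grey) and the 5 members (red, with 95% exact intervals). Dashed lines mark a 2-fold difference, and all members lie between −0.11 and 0.40.

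The cluster was set beside others of a similar kind, as a description, since 2 replicates of 1 group give no test between clusters. The X-linked Mir322 cluster, which includes Mir322 and Mir503, known for their part in cell cycle exit of myoblasts, held 17463 CPM in replicate 1 and 17361 CPM in replicate 2 over 7 genes. The Clcn5 cluster, with 4072 and 4101 CPM, was 0.235 ± 0.00215 times as high by summed CPM, and 0.321 and 0.325 times per base of annotated gene. The Mir322 cluster includes loci whose mature sequence is identical elsewhere, and their reads that mapped to several loci are not in its count. Without such loci the ratio was 0.2351 against 0.2347, which does not correct for the uncounted reads. The pair Mir191 and Mir425 on chromosome 9, within the noncoding gene 4833445I07Rik next to Dalrd3, held 5918 and 6128 CPM. The Clcn5 cluster was 0.679 ± 0.0133 times as high as that pair by CPM, and 0.254 and 0.247 times per base. This ratio turned round, to 6.45, when reads on either strand were counted. The counts of the Clcn5 cluster were unchanged there, so those of the pair were lower.

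The X-linked Mir106a cluster, a paralog of the growth-associated miR-17-92 cluster, was far lower. Its 6 genes held 27.3 CPM in replicate 1 and 35.3 CPM in replicate 2, and the Clcn5 cluster was 133 ± 23.1 times as high by CPM, or 166 and 129 times per base. Mir19b-2 and Mir92-2 of that cluster have a mature sequence that is identical at another locus, so reads of theirs that mapped to several loci are not in the count. Without such loci the Clcn5 cluster was 215 times as high by CPM. Leaving genes out of the lower cluster can only raise the ratio, so this value does not correct for the uncounted reads.

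Between the replicates, other clusters also had members that moved apart. In the Mir322 cluster 3 of 6 tested genes were higher in replicate 1 and 0 were lower, beside 31.8% and 19.0% of all genes tested, among them Mir542 (log2 ratio 0.35, exact binomial test, adjusted p = 1.53e-15). Mir322 itself was not called (log2 ratio −0.01, exact binomial test, adjusted p = 0.338). Of the chromosome 9 pair, Mir425 was higher in replicate 1 (log2 ratio 0.31, exact binomial test, adjusted p = 7.34e-09) and Mir191 was lower (−0.04, exact binomial test, adjusted p = 0.0408). In the Mir106a cluster the 1 gene tested, Mir92-2, was not called. With edgeR's exact test 0 of the 258 genes were higher in replicate 1, so the calls of Mir425 and of the 3 genes of the Mir322 cluster were lost, and that of Mir191 was lost too.

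**Figure D4:**
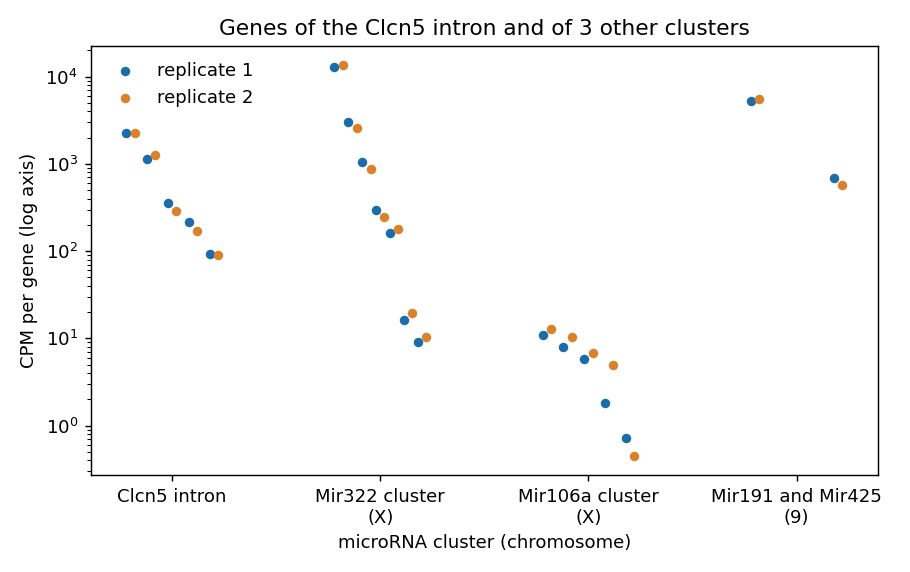
CPM per gene (log axis) in replicate 1 (blue) and replicate 2 (orange) for the Clcn5 intron genes and for 3 other clusters, with genes ordered by level within each and values of 0 left out. The Clcn5 genes lie between 90.0 and 2288 CPM, and the genes of the Mir106a cluster at or under 12.7 CPM.

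The genes nearest to the members in level were found by Euclidean distance of log2(CPM + 1) over the 2 libraries, which is a likeness of level in this tissue only. Nearest to Mir532 was Mir125a, with 2306 CPM in replicate 1 and 2250 CPM in replicate 2, at a distance of 0.032. Mir674 was nearest to Mir501, with 1192 and 1289 CPM at a distance of 0.074. Mir25, in Mcm7, was nearest to Mir500, with 351 and 301 CPM at a distance of 0.053. For Mir188 it was Mir148a, with 230 and 169 CPM at 0.084, and for Mir362 it was Mir130b, with 94.0 and 85.9 CPM at 0.067. All 5 of these genes lie on other chromosomes than the cluster, as do most genes at such levels. Only 26 of the 258 genes at 10 CPM or more in both are X-linked, the members included.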

How the data were processed

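The authors deposited raw read counts for each microRNA gene, as whole numbers in 1 table per library, with columns for either, the own and the opposite strand. Counting used build mm10 and annotation M21, per the labels and deposited notes; the aligner, counter and adapter trimming are not given in the sources used here. Own-strand counts were used. 4 lines of each table name no gene and were left out; their reads made up 72.7% and 73.0% of the libraries. All 2202 identifiers matched GENCODE vM21, on the same build. The members, lists and the rule for named genes were chosen with earlier results of these data known. The rule named all members, other microRNA genes within Clcn5, 3 comparison clusters, the gene nearest in level to each member, genes sharing a seed and the most abundant gene.

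CPM was computed over all gene rows. Replicates were compared with edgeR 4.0.16 sizes (TMM, R 4.3.3) and an exact binomial test in SciPy 1.17.1. The test was tried on simulated counts that held counting error only and used total library sizes. That simulation therefore does not cover the larger spread of these libraries. A quasi-likelihood fit has no coefficient to test in 1 group. Over the 258 genes tested the chi-square was 77.8 per degree of freedom, so the libraries were kept as 2 samples. A count of 0 allows 3 counts, which is 1.09 CPM at the depth of replicate 1 and 1.36 at that of replicate 2. Intervals cover counting error only, since PCR copies are not independent molecules. Alternatives were DESeq2 1.42.0 size factors, total counts, other filters, either strand, edgeR's exact test, the most abundant gene left out, a pseudocount of 0.5, scaling by gene length and each replicate left out. Sequences came from RefSeq (GRCm38.p6). Hairpins were folded with ViennaRNA 2.7.2 and aligned with Biopython 1.88.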

Additional observations from a re-analysis of the deposited data

How the results depend on the processing

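Of 128 recomputed values, 102 kept their direction and call or moved by less than the spread between the replicates, 25 moved by more and 1 changed sign. The 102 include values that could not have moved further. With 2 replicates, leaving 1 out moves a mean by less than the SD whatever the data. The members had no count on the opposite strand, and their shares of the cluster were the same with either strand counted. With reads on either strand the levels were 2973 CPM for Mir532, 1565 for Mir501, 418 for Mir500, 252 for Mir188 and 119 for Mir362, and the cluster's share was 0.533%. The members' counts were unchanged in that setting, and the total that scales them was smaller. With the most abundant gene left out, Mir532 was at 2584, Mir501 at 1361 and Mir362 at 104 CPM, and the share was 0.463%; of all reads of a library the share was 0.111%. Per base of annotated gene Mir532 held 55.9% of the cluster, Mir501 25.9%, Mir188 6.68% and Mir362 3.32%. The order of the 5 levels was the same per base and in each replicate alone. With total-count library sizes the log2 ratio of Mir532 turned to −0.0088 (exact binomial test, adjusted p = 0.824), and the calls of Mir188, Mir500 and Mir501 were the same with every library size tried. With edgeR's exact test 0 members were higher and 0 lower, and 0 of all genes were higher and 3 lower in replicate 1. Genes called and at least 2-fold apart numbered 3, or 10 with every gene that had a count and 0 at 100 CPM or more. The Clcn5 cluster stood at 0.323 times the Mir322 cluster and 0.251 times Mir191 and Mir425 per base, an alternative added after seeing the data. With either strand counted it stood at 6.45 times that pair, against 0.679 times on the own strand. The counts of the Clcn5 cluster were unchanged there, so those of the pair were lower (the cause was not tested). Without loci of identical mature sequence the Clcn5 cluster stood at 215 times the Mir106a cluster, a step that could only raise this ratio. With a single replicate the ratio to the Mir106a cluster was 116 to 149. No paired analysis was possible because there is 1 group. Depth limits Mir362 most, on 256 and 199 counts.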
